A study of Mus musculus with 9 samples.

Results

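Lungs of mice given nanocapsules of an anti-PD1 antibody were compared with lungs of mice given the free antibody. This took 6 of the 9 lungs in the study, 3 for each treatment, and every gene with at least 1 TPM (transcripts per 1000000) in at least 3 of the 6 lungs. That filter left 12841 of 45706 genes, while 22582 were above 0 in at least 1 of the 6 lungs. The 3 lungs that received phosphate-buffered saline (PBS) were left out of the test and their values are given as context only.

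All mice were female BALB/c, aged 4 to 6 weeks, with 4T1 cells in the right flank. 4T1 is a mouse mammary carcinoma line that is known for spreading to the lung and for expanding neutrophils in its host. Both treatments were given on days 7 and 14 after engraftment and lungs were collected on day 21, and the study asked whether the antibody causes adverse immune effects there. The labels give 150 µg per mouse beside the nanocapsules, and whether the free antibody was given at that dose is not stated. What the nanocapsule shell was made of, and whether an empty capsule was tested, is not given in the sources used here. The labels number the lungs in each group without naming animals, so the p-values reflect only the spread among these lungs, which may be in part technical.

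PD1, the product of Pdcd1, restrains T cells once they are activated, and its ligands are encoded by Cd274 and Pdcd1lg2. Antibodies that block the receptor release T cells from this brake and can cause inflammation of healthy organs, the lung among them. Neutrophils make their granule proteins in sequence while they mature in the bone marrow. Primary granule genes such as Elane and Mpo are transcribed in promyelocytes, secondary and tertiary granule genes such as Ltf and Mmp9 in later precursors, and genes of cell surface receptors in mature cells.

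The deposited values are TPM, so the sequencing depth behind each value was unknown, and each library summed to the same total. Anti-PD1 lungs 1, 2 and 3 had 13050, 12746 and 13407 genes at 1 TPM or more. Nanocapsule lungs 1, 2 and 3 had fewer, at 12595, 12194 and 12357, without overlap, and the cause was not tested. The PBS lungs had 12349 to 12981. Over the tested genes, Spearman correlations ran from 0.973 to 0.980 between lungs of 1 group and from 0.957 to 0.978 between the groups. Markers of lung tissue were present in all 6 lungs, with Sftpc, the surfactant protein C gene, at 629 to 3410 TPM and Scgb1a1, the club cell secretoglobin gene, at 2462 to 9961 TPM. S100a8 and S100a9, whose calcium-binding proteins fill the neutrophil cytosol, took 15.5%, 17.5% and 15.6% of all TPM in nanocapsule lungs 1, 2 and 3. Their share was 11.4%, 12.0% and 10.3% in anti-PD1 lungs 1, 2 and 3, and the groups did not overlap (two-sided exact permutation test, p = 0.1, the smallest that 3 against 3 lungs can give).

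limma called 526 of the 12841 genes (4.1%) at an adjusted p under 0.05, 191 higher (1.49%) and 335 lower (2.61%) in the nanocapsule lungs. Without nanocapsule lung 2 limma called 0 genes, with 688 higher and 1713 lower at an unadjusted p under 0.05, and its lowest adjusted p was 0.0737. Of the 526 calls, 22 were shared with the fit without anti-PD1 lung 1 and 10 with the fit without anti-PD1 lung 3. No named gene that was called changed sign when 1 lung was left out. For a gene whose groups do not overlap that outcome was fixed in advance. Leaving out 1 lung put the median log2 difference of secondary and tertiary granule genes between 0.66 and 0.73, and that of the mitochondrial genome between -1.40 and -1.07. With the spread estimated from all 9 libraries, 50 genes (0.389%) were called higher and 38 (0.296%) lower, all 88 of them among the 526. The same 73 genes, 50 higher and 23 lower, were called in the 6-lung fit, with the spread of all 9 libraries and under each of 4 other scalings that tested them. Of these scalings 1 leaves out mt-Atp8 and Ighv3-2 by its construction, so these 2 were not tested under it. The 73 included Elane, Mpo, Prtn3, Cebpe, Cd177, Ltf, Lcn2, Ngp, Ly6g and Retnlg among the higher and Cd2, Gimap5, Hnrnph1 and Snhg20 among the lower.

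Most tested genes had lower values in the nanocapsule lungs. The log2 difference, nanocapsule minus anti-PD1 on log2(TPM + 1), was below 0 for 9068 genes (70.6%) and above 0 for 3773 (29.4%), with a median of -0.17. Median-of-ratios scaling brought that median to -0.03 and quantile normalization to 0.02. The scaling set the balance of the calls: 36.3% of calls were higher as deposited, 73.6% with median-of-ratios scaling, 68.2% with quantile normalization, 60.9% after rescaling without S100a8 and S100a9, and 21.0% after rescaling without mitochondrial, haemoglobin and immunoglobulin genes. The medians of gene lists are therefore to be read against -0.17. Their counts of calls are to be read against 1.49% of all genes higher and 2.61% lower, and several lists with 1 call were near these shares. At an unadjusted p under 0.05, 868 genes (6.76%) were higher and 2892 (22.5%) lower. The 3 nanocapsule values lay above the 3 anti-PD1 values for 1154 genes (8.99%) and below them for 3197 (24.9%). Of the tested genes, 10 reached 1 TPM in all 3 nanocapsule lungs and in no anti-PD1 lung, and 111 in all 3 anti-PD1 lungs and in no nanocapsule lung. limma called 3 of the former and 11 of the latter, which passed the filter only through the group in which they were high. All of these data are bulk values, in which fewer cells of a type and less RNA per cell cannot be told apart.

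**Figure D1:**
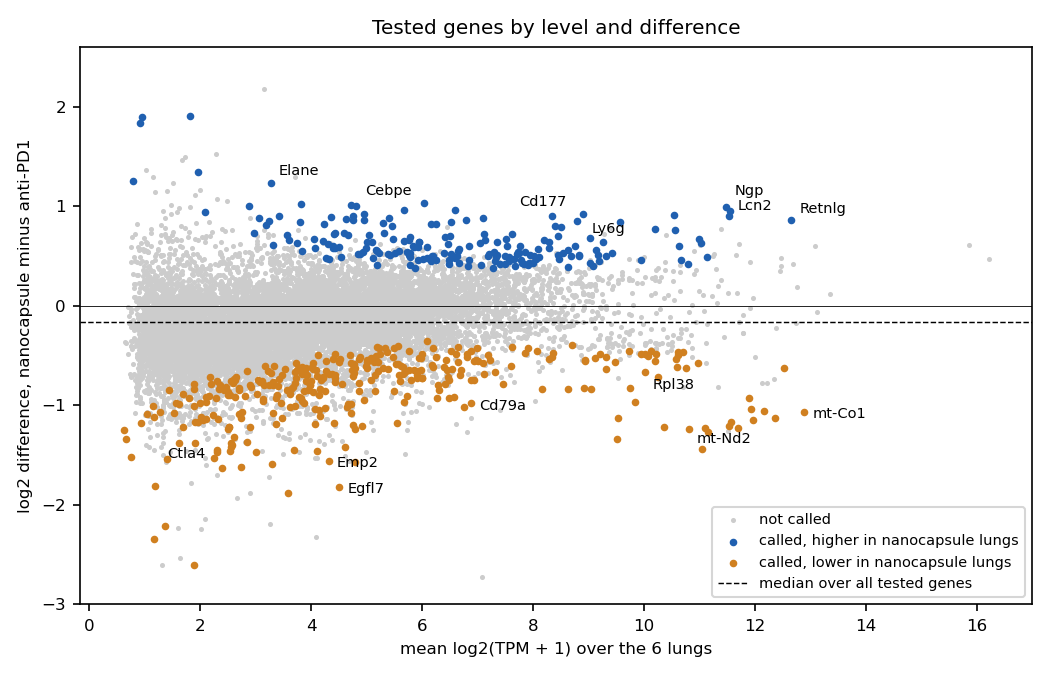
Each point is 1 of the 12841 tested genes, with its mean log2(TPM + 1) over the 6 lungs on the horizontal axis and its log2 difference, nanocapsule minus anti-PD1, on the vertical axis. Blue points are the 191 genes called higher, orange points the 335 called lower, and the dashed line is the median of all genes, -0.17. Neutrophil genes such as Ngp, Lcn2 and Retnlg lie at the high-level end of the blue points and genes of the mitochondrial genome at that end of the orange points.

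Genes of secondary and tertiary neutrophil granules were higher in the nanocapsule lungs, and those of primary granules were divided. Of 24 tested genes of secondary and tertiary granules, 14 rose and 0 fell, against 1.49% and 2.61% of all genes, with a median log2 difference of 0.69. Fits with the spread of all 9 libraries, without anti-PD1 lung 1 and without anti-PD1 lung 3 called 6, 5 and 0 of these 24 higher. Without nanocapsule lung 1 or without nanocapsule lung 3 the number was 14, and without anti-PD1 lung 2 it was 15. Of 15 tested primary granule genes, 4 rose (Elane, Prtn3, Mpo and Ms4a3) and 0 fell, while 8 had a log2 difference above 0 and 7 below, with 7 higher and 2 lower at an unadjusted p under 0.05. With the spread of all 9 libraries 4 of the 15 were called higher, and without anti-PD1 lung 1 or without anti-PD1 lung 3 none (0 of 15). The median of 0.14 for primary granule genes lay between 0.06 and 0.24 when 1 lung was left out and was -0.04 with a filter of 5 TPM in 3 lungs. The precursor list, which mixes maturation and cell cycle genes, had 3 of 20 higher (Cebpe, Chil1 and Fcnb), against 1.49% of all genes. Its median of -0.10 turned to 0.24 without anti-PD1 lung 3. Because the members' promoters are shown with their values, 4 of them come first.

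For each gene the sequence is that of RefSeq on GRCm38, from 250 bases before the start, cut where an annotated exon begins. Capitals mark a match to TTGCNNAA, a core of the sites that C/EBP factors bind, or to GAGGAAG, a core of the sites that PU.1 binds, on either strand. These 4 are shown as called granule genes that hold a match, 2 for each motif, and were chosen after their values were seen.
Elane promoter, chr10:79886062-79886246, plus strand: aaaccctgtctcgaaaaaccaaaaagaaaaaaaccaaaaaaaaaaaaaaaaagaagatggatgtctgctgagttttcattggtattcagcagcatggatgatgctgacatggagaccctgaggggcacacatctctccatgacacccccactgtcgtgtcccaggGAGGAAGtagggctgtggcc
Prtn3 promoter, chr10:79879417-79879613, plus strand: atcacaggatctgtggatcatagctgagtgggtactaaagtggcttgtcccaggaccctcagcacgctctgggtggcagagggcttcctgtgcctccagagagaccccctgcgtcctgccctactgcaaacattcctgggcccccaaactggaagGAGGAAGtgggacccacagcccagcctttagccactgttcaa
Ltf promoter, chr9:111019042-111019270, plus strand: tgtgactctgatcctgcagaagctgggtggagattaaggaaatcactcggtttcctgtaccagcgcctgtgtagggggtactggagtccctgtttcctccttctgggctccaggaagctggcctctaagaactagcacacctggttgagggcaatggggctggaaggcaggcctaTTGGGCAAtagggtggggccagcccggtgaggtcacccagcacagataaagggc
Ngp promoter, chr9:110419558-110419746, plus strand: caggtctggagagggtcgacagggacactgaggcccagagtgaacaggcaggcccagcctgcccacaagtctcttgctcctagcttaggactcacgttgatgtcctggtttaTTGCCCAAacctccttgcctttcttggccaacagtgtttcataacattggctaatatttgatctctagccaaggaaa
In the Elane and Prtn3 windows the capitals are GAGGAAG. In the Ltf window they are TTGCNNAA read on the opposite strand, and in the Ngp window TTGCNNAA on the strand shown. Among all 27025 genes in the promoter table, 10.8% held the C/EBP letters and 12.0% the PU.1 letters, and among 9185 tested genes with an entry 9.42% and 13.8%. Among genes called higher with an entry, 18 of 139 held the C/EBP letters (12.9%) and 32 of 139 the PU.1 letters (23.02%). For genes called lower these shares were 12.2% and 12.7% of 229. Of 20 secondary and tertiary granule genes with an entry, 8 held the C/EBP letters and 7 the PU.1 letters. The Cd177 window held neither. These matches describe letters only.

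Elane, the gene of neutrophil elastase (chromosome 10 from 79886247 to 79888215 of GRCm38), was at 5.55, 4.72 and 5.70 TPM in anti-PD1 lungs 1, 2 and 3 and at 11.6, 16.5 and 13.6 TPM in nanocapsule lungs 1, 2 and 3. Each nanocapsule lung was above 2 times the level of any anti-PD1 lung. The group means were 5.32 ± 0.526 and 13.9 ± 2.43 TPM (SD, n = 3), a ratio of 2.61, and differed by 1.23 on the log2 scale (SE 0.16, limma adjusted p = 0.0215). The PBS lungs, which were not in the test, were at 10.1, 12.9 and 13.6 TPM, so that the anti-PD1 lungs held the lowest Elane levels of the 9. Prtn3, its neighbour on the chromosome and the gene of proteinase 3, was at 36.3, 32.1 and 38.5 TPM against 64.7, 91.0 and 58.8 TPM in the same order (log2 difference 0.96, SE 0.16, limma adjusted p = 0.0295). Mpo, the gene of myeloperoxidase, was at 8.17, 8.91 and 9.62 TPM against 14.5, 19.3 and 24.8 TPM (log2 difference 1.02, SE 0.19, limma adjusted p = 0.0338). Both showed no overlap between the groups. Ctsg, the gene of cathepsin G, was at 5.58 ± 0.657 and 9.12 ± 1.27 TPM (SD, n = 3) and did not pass (log2 difference 0.62, limma adjusted p = 0.0592).

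Among genes of later granules, Cd177 encodes a surface protein that neutrophils hold in their secondary granules and lies on chromosome 7 from 24743983 to 24760311. It was at 355, 302 and 330 TPM with the free antibody and at 582, 602 and 600 TPM in the nanocapsule lungs (log2 difference 0.85, SE 0.09, limma adjusted p = 0.0174). The nanocapsule lungs lay close together and all stood above the highest anti-PD1 lung. Ltf, the gene of lactoferrin, rose from a mean of 1091 to 2044 TPM, a log2 difference of 0.91 (limma adjusted p = 0.0215). Ngp, neutrophilic granule protein, was at 2377, 1728 and 1984 TPM against 3974, 3796 and 4235 TPM (log2 difference 0.99, limma adjusted p = 0.0230). Lcn2, the gene of the iron-scavenging lipocalin 2, was at 2168 ± 241 and 4025 ± 159 TPM (SD, n = 3; log2 difference 0.90). Mmp8 and Mmp9, the neutrophil collagenase and gelatinase genes, rose by 0.79 and 0.84 on the log2 scale. Camp (0.77), Pglyrp1 (0.67), Mmp25 (0.84), Ceacam1 (0.64) and Ceacam10 (0.82) also rose, the figures being log2 differences. In this list 17 of 24 genes had nanocapsule values all above the anti-PD1 values, against 8.99% of all genes.

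Cebpe, the transcription factor that drives the later granule genes, had the smallest p of any named gene. It lies on chromosome 14 from 54710360 to 54712174. Its levels were 19.9, 18.1 and 18.6 TPM with the free antibody and 38.9, 38.9 and 38.8 TPM in the nanocapsule lungs, a ratio of 2.06, and differed by 1.01 on the log2 scale (SE 0.10, limma adjusted p = 0.0174). Neither group spread by as much as 2 TPM. Klf5, a zinc finger transcription factor of granulocyte differentiation, rose from 8.32 ± 0.560 to 14.3 ± 1.83 TPM (SD, n = 3; log2 difference 0.71, limma adjusted p = 0.0368). These were the 2 called of 20 tested granulocyte transcription factors, against 1.49% of all genes called higher. The median of these 20, 0.03, changed sign with the setting. Cebpb, a more general factor of the same family as Cebpe, was at 2406 ± 126 and 2758 ± 223 TPM (SD, n = 3) and did not pass (log2 difference 0.20, limma adjusted p = 0.257).

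**Figure D2:**
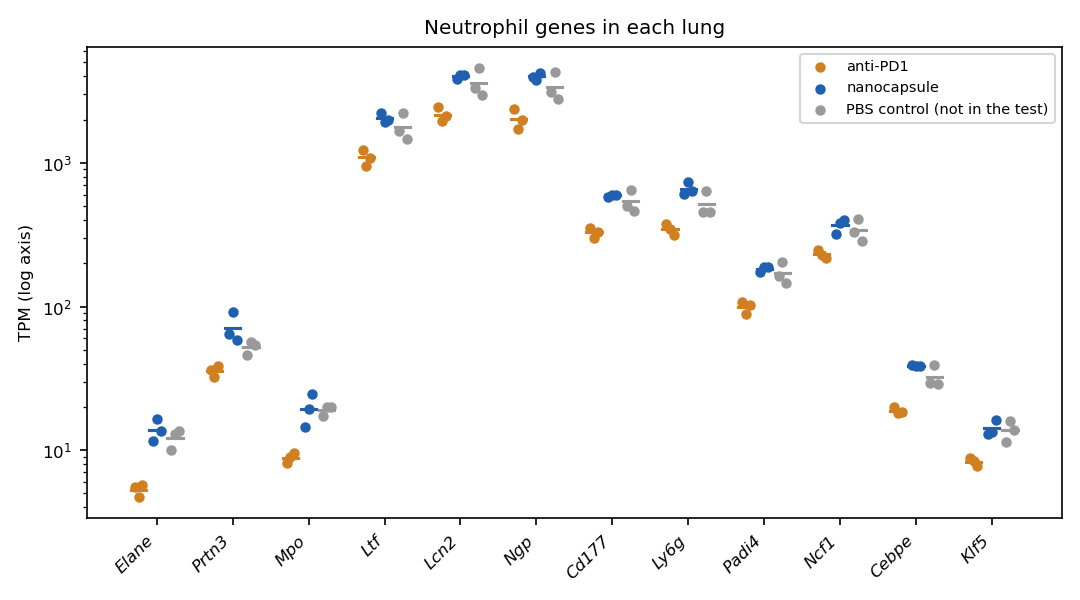
TPM of 12 neutrophil genes in each lung on a log axis, with 1 point a lung and a bar at each group mean. In all 12 genes the 3 nanocapsule lungs (blue) lie above the 3 anti-PD1 lungs (orange), and the PBS lungs (grey, not in the test) lie nearer to the nanocapsule lungs for genes such as Elane, Mpo and Klf5.

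Most genes of mature neutrophils were higher in value. Of 37 tested surface and receptor genes, 10 rose and 0 fell, against 1.49% and 2.61% of all genes. In 36 of 37 the log2 difference was above 0, against 29.4% of all genes, with a median of 0.46. The number called higher was 2 with the spread of all 9 libraries, 2 without anti-PD1 lung 1 and 0 without anti-PD1 lung 3. Ly6g, the surface antigen by which mouse neutrophils are usually identified, was at 377, 349 and 315 TPM against 604, 739 and 634 TPM (log2 difference 0.92, SE 0.11, limma adjusted p = 0.0201). Retnlg, which encodes the resistin-like protein gamma, was at 4926, 4709 and 4673 TPM against 7743, 10524 and 8014 TPM (log2 difference 0.86, limma adjusted p = 0.0295). In both genes every nanocapsule lung stood above every anti-PD1 lung. Fpr2, a formyl peptide receptor (0.43), Clec12a, an inhibitory lectin receptor (0.64), and Ptafr, the receptor of platelet-activating factor (0.51), rose as well, with log2 differences in parentheses. Cxcr2, the chemokine receptor that draws neutrophils out of the marrow, was at 515 ± 76.4 and 697 ± 109 TPM (SD, n = 3) and did not pass (limma adjusted p = 0.104). S100a8, at 47655 ± 1649 and 72701 ± 2419 TPM, and S100a9, at 64593 ± 7677 and 89397 ± 9240 TPM (SD, n = 3), did not pass either (limma adjusted p = 0.0829 and 0.182), though in neither did the groups overlap. Reads of Ly6g and Cd177 can be shared with related genes or copies, so their exact levels are less certain.

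In the machinery of killing and of extracellular traps, 4 of 13 tested genes rose and 0 fell, against 1.49% and 2.61% of all genes, with a median of 0.15. The number called higher was 1 with the spread of all 9 libraries, 1 without anti-PD1 lung 1 and 0 without anti-PD1 lung 3. Padi4, the enzyme that citrullinates histones when traps form, was at 108, 88.4 and 103 TPM against 174, 189 and 188 TPM (log2 difference 0.88, SE 0.10, limma adjusted p = 0.0195). The oxidase subunit genes Ncf1 (0.66) and Ncf4 (0.51) and the GTPase gene Rac2 (0.45) rose on the log2 scale. Cyba, a membrane subunit of the same oxidase, was at 1329 ± 107 and 1433 ± 91.8 TPM (SD, n = 3; adjusted p = 0.494 by limma). Other called genes outside the lists were Prok2, a secreted prokineticin that neutrophils express (237 ± 10.6 and 444 ± 37.996 TPM), Ckap4, a membrane protein of the endoplasmic reticulum (81.0 ± 5.27 and 148 ± 5.16 TPM), and St3gal5, a sialyltransferase of ganglioside synthesis (21.4 ± 1.89 and 41.4 ± 0.646 TPM; SD, n = 3). For these 3 genes limma gave adjusted p = 0.0174, 0.0174 and 0.0195. Of 18 tested genes tied to myeloid suppression 1 rose, Anxa1, the gene of the anti-inflammatory annexin A1, with a median of 0.23 (0.12 without anti-PD1 lung 3). Arg1, arginase 1, was at 1.34, 1.70 and 2.78 TPM against 4.89, 14.98 and 5.04 TPM and did not pass (log2 difference 1.52, limma adjusted p = 0.0586).

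Glycolytic genes rose with the neutrophil genes. Of 21 tested genes of glucose uptake and glycolysis, 9 rose and 0 fell, against 1.49% and 2.61% of all genes, with a median log2 difference of 0.42. The same genes gave 1 call higher with the spread of all 9 libraries and 0 without anti-PD1 lung 1 or without anti-PD1 lung 3. Without nanocapsule lung 3 limma called 2 of them, and without nanocapsule lung 1 or without anti-PD1 lung 2 it called 8. In 17 of 21 the nanocapsule values all lay above the anti-PD1 values, against 8.99% of all genes. Hk3, the hexokinase of myeloid cells, was at 93.4, 95.9 and 89.2 TPM against 132, 143 and 149 TPM (log2 difference 0.60, SE 0.09, limma adjusted p = 0.0245). Pgk1, phosphoglycerate kinase, was at 231 ± 13.4 and 323 ± 10.5 TPM (SD, n = 3; log2 difference 0.48, limma adjusted p = 0.0314). The glucose transporter gene Slc2a3 (0.63), the glycogen phosphorylase gene Pygl (0.51), Eno1 (0.47), Gpi1 (0.40), Pkm (0.45), Gapdh (0.42) and Pgam1 (0.47) made up the other called members, by log2 difference. Among single genes of glucose metabolism outside this list, G6pdx rose by 0.64 on the log2 scale, Pgd by 0.60 and Tkt by 0.51. Gsr, glutathione reductase, rose from 56.4 ± 1.48 to 101 ± 11.8 TPM (SD, n = 3; log2 difference 0.83, limma adjusted p = 0.0215). It was 1 of 5 genes called higher among 20 tested antioxidant genes of the NRF2 group, against 1.49% of all genes. In that group 1 gene fell, Gstm1, against 2.61% of all genes, and the median of -0.10 changed sign with the setting. The index of glycolytic genes, the mean log2(TPM + 1) of the members relative to its mean over the 6 lungs, was -0.16 to -0.22 in the anti-PD1 lungs and 0.07, 0.22 and 0.28 in nanocapsule lungs 1, 2 and 3. Neutrophil genes moved with it, with the secondary granule index at -0.22 to -0.37 and 0.25 to 0.33, and their part in the glycolytic difference was not tested.

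Transcripts of the mitochondrial genome were lower in the nanocapsule lungs by the lowest median of the lists plotted. Of its 13 tested protein genes 12 fell, against 2.61% of all genes, with a median log2 difference of -1.21. mt-Nd6, a complex I subunit and the sole protein gene on the light strand (mitochondrial positions 13552 to 14070), was at 1850, 2132 and 2029 TPM against 1014, 828 and 749 TPM (log2 difference -1.22, SE 0.13, limma adjusted p = 0.0174). The groups did not overlap, and nanocapsule lung 1 was the highest of its group. mt-Co1, a catalytic subunit of cytochrome oxidase, was at 9954, 11658 and 11147 TPM against 7025, 4340 and 4595 TPM (log2 difference -1.07, limma adjusted p = 0.0329). mt-Nd3 did not pass (log2 difference -0.57, limma adjusted p = 0.163). As a share of all TPM, mitochondrial transcripts took 5.01%, 5.76% and 5.48% in the anti-PD1 lungs and 3.30%, 2.37% and 2.22% in the nanocapsule lungs (two-sided exact permutation test, p = 0.1). PBS lung 2 had 2.37%, level with nanocapsule lung 2, while PBS lungs 1 and 3 had 4.38% and 3.90%. With median-of-ratios scaling 7 of the 13 were called, and with the spread of all 9 libraries 1, mt-Atp8.

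Oxidative phosphorylation genes of the nucleus had a median of -0.17, equal to that of all genes. Of 36 tested, 0 were called, with 10 lower and 0 higher at an unadjusted p under 0.05, against 22.5% and 6.76% of all genes. Yet 35 of 36 had a log2 difference below 0, against 70.6% of all genes, and in 18 of 36 the nanocapsule values all lay below the anti-PD1 values, against 24.9%. Their summed level was 5385 to 5599 TPM in the nanocapsule lungs and 6158 to 6507 TPM in the anti-PD1 lungs. Atp5b, a subunit of ATP synthase, was at 747 ± 19.4 and 562 ± 73.6 TPM (SD, n = 3; adjusted p = 0.0634 by limma), and Cox6a1, a subunit of cytochrome oxidase, at 718 ± 19.4 and 684 ± 47.4 TPM (SD, n = 3; adjusted p = 0.615 by limma). No test of the difference between the mitochondrial and nuclear lists was made.

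Genes of the ribosome and of small nucleolar RNA hosts were also lower. All 49 tested cytosolic ribosomal protein genes had a log2 difference below 0, against 70.6% of all genes, with a median of -0.43. Among them 14 fell, against 2.61% of all genes, and 0 rose. With the spread of all 9 libraries 2 of the 49 were called, and without anti-PD1 lung 1 or without anti-PD1 lung 3 none (0 of 49). Leaving out anti-PD1 lung 2, nanocapsule lung 1 or nanocapsule lung 3 gave 44, 11 and 5 called lower. Rpl38, a protein of the large subunit, was at 1303, 1244 and 1342 TPM against 853, 815 and 780 TPM (log2 difference -0.67, SE 0.09, limma adjusted p = 0.0215). Rps27, a protein of the small subunit, was at 7295 ± 638 and 4715 ± 385 TPM (SD, n = 3; log2 difference -0.63). With median-of-ratios scaling 0 of the 49 were called and their median was -0.27. Of 14 tested host genes of small nucleolar RNAs, 6 fell, against 2.61% of all genes, and 0 rose, with a median of -0.58. Calls among these 14 numbered 2 with the spread of all 9 libraries and 0 without anti-PD1 lung 1 or without anti-PD1 lung 3. They numbered 6, 4 and 3 without anti-PD1 lung 2, nanocapsule lung 1 or nanocapsule lung 3. Snhg8 was at 56.4, 64.0 and 65.8 TPM against 34.7, 40.2 and 34.1 TPM (log2 difference -0.76, limma adjusted p = 0.0244). Snhg20 (log2 difference -0.84, limma adjusted p = 0.0264) and Gas5 (-0.64, limma adjusted p = 0.0427), a host gene that is induced when growth stops, fell likewise. Of 32 splicing factor genes of the Hnrnp and Srsf families 1 fell, a share near the 2.61% of all genes. The gene was Hnrnph1, which went from 155 ± 10.5 to 105 ± 2.19 TPM (SD, n = 3; adjusted p = 0.0284 by limma). Ribosomal protein genes have many processed pseudogenes, and reads may be split between them.

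**Figure D3:**
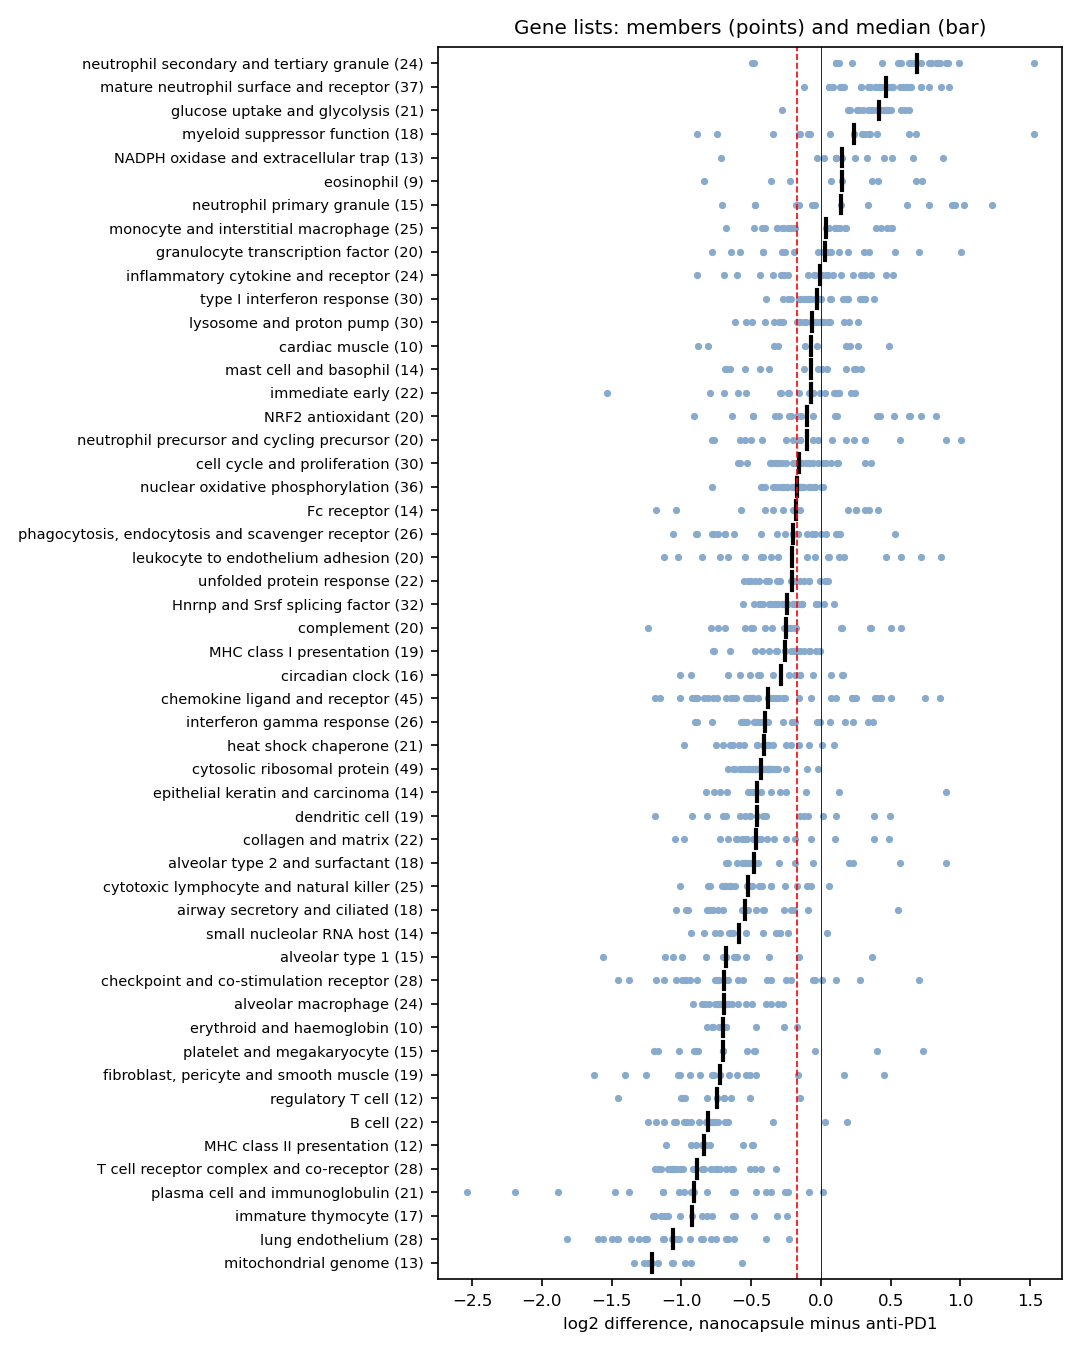
Log2 difference of each tested member (points) and the median (black bar) for the gene lists with at least 9 tested members, ordered by median, with the number tested in parentheses. The red dashed line is the median of all tested genes, -0.17. Secondary and tertiary granule genes (0.69) stand at the top and the mitochondrial genome (-1.21) and lung endothelium (-1.06) at the bottom.

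Structural cells of the lung came next, with endothelium first. All 28 tested endothelial genes had a log2 difference below 0, against 70.6% of all genes, 6 fell, against 2.61%, 0 rose, and the median was -1.06. Kdr, through which vascular endothelial growth factor signals (chromosome 5 from 75932827 to 75978458), was at 7.82, 5.78 and 10.2 TPM with the free antibody and at 3.45, 2.25 and 2.47 TPM in the nanocapsule lungs (log2 difference -1.24, SE 0.22, limma adjusted p = 0.0318). Egfl7, a matrix protein that endothelial cells secrete, was at 33.7, 32.0 and 67.5 TPM against 17.1, 8.08 and 9.77 TPM, 3.81 times lower by group mean (log2 difference -1.82, SE 0.32, limma adjusted p = 0.0321). In both genes nanocapsule lung 1 was the highest of its group and anti-PD1 lung 3 the highest of all 6. Tmem100 (-1.60), Ramp2 (-1.46), Gpihbp1 (-1.45) and Pecam1 (-1.02) were the other called members, by log2 difference. The endothelial index was 0.40, 0.21 and 0.99 in anti-PD1 lungs 1, 2 and 3 and -0.08, -0.98 and -0.54 in nanocapsule lungs 1, 2 and 3, and PBS lung 2, at -1.10, lay below all 6. With the spread of all 9 libraries 0 of the 28 were called.

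Epithelial genes were more mixed and were divided by library. Of 15 tested alveolar type 1 genes 1 fell, Emp2, a membrane protein of those cells, which was at 27.8, 28.5 and 46.0 TPM against 16.7, 6.95 and 10.01 TPM (log2 difference -1.56, SE 0.30, limma adjusted p = 0.0359). Of 18 alveolar type 2 genes 0 fell, and the 2 that rose, Lcn2 and Chil1, are also expressed by neutrophils. Sftpc was at 1480, 1256 and 3316 TPM against 3410, 629 and 914 TPM, so that nanocapsule lung 1 was the highest of the 6 and the groups overlapped (limma adjusted p = 0.553). The type 2 list had a median of -0.48, which came to -0.07 without nanocapsule lung 2 and to 0.19 without nanocapsule lung 2 and anti-PD1 lung 3. Of 18 airway genes 0 were called, with 1 higher and 5 lower at an unadjusted p under 0.05, against 6.76% and 22.5% of all genes. The airway median was -0.54 (-0.84 without anti-PD1 lung 1). Scgb1a1 was at 3212, 9961 and 9193 TPM against 7971, 2462 and 3258 TPM, which overlapped.

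Mesenchymal genes had a median of -0.73 over 19 tested, with 2 lower and 1 higher, against 2.61% and 1.49% of all genes. Cox4i2, a cytochrome oxidase subunit of pericytes and smooth muscle, was at 8.06, 8.03 and 18.7 TPM against 3.74, 2.19 and 2.62 TPM (log2 difference -1.62, SE 0.31, limma adjusted p = 0.0364). Postn, the gene of periostin, was the other that fell. Pi16, a marker of adventitial fibroblasts, rose from 187 ± 14.9 to 257 ± 17.98 TPM (SD, n = 3; adjusted p = 0.0427 by limma), while 17 of the 19 genes had a log2 difference below 0. The whole list summed to 438 to 653 TPM in the anti-PD1 lungs and 429 to 502 TPM in the nanocapsule lungs. Pi16 was thus a large part of that sum, and which cells held its transcripts was not tested. Of 22 collagen and matrix genes 0 were called, with 1 higher and 9 lower at an unadjusted p under 0.05, against 6.76% and 22.5% of all genes. Col1a1 was at 26.8, 13.5 and 25.1 TPM against 15.8, 14.0 and 10.9 TPM, which overlapped (limma adjusted p = 0.151).

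B cell genes were lower. Of 22 tested, 5 fell (Ralgps2, Cd79a, Fcmr, Iglc2 and Pax5), against 2.61% of all genes, and 0 rose, with a median of -0.81. None was called (0 of 22) with the spread of all 9 libraries, without anti-PD1 lung 1 or without anti-PD1 lung 3. Cd79a, a signalling chain of the B cell receptor (chromosome 7 from 24897381 to 24902197), was at 202, 135 and 165 TPM against 100, 68.0 and 84.0 TPM (log2 difference -0.98, SE 0.18, limma adjusted p = 0.0321). All nanocapsule lungs were below all anti-PD1 lungs. Pax5, the transcription factor that fixes B cell identity, was at 21.6, 11.5 and 14.9 TPM against 7.77, 7.14 and 5.06 TPM (log2 difference -1.13, limma adjusted p = 0.0420). Of 21 tested plasma cell and immunoglobulin genes 4 fell, against 2.61% of all genes, and 0 rose, while 0 were called with the spread of all 9 libraries. Among the 4 was Igkc, the constant region of the kappa light chain, at 1434, 772 and 1164 TPM against 665, 408 and 453 TPM (log2 difference -1.13, limma adjusted p = 0.0449). Iglc2 and Iglc3 are near-identical constant regions and their separate levels are uncertain.

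MHC class II genes, which B cells, dendritic cells and macrophages use to present peptide to helper T cells, were lower as a set of values. Of 12 tested, 7 fell, against 2.61% of all genes, and 0 rose. In 11 the nanocapsule lungs lay lower without overlap (24.9% of all genes), and the median was -0.84. None was called (0 of 12) with the spread of all 9 libraries, without anti-PD1 lung 1 or without anti-PD1 lung 3. H2-Ob, a chain of the peptide-loading inhibitor of B cells, was at 36.5, 20.2 and 22.1 TPM against 12.5, 10.3 and 11.02 TPM (log2 difference -1.11, SE 0.21, limma adjusted p = 0.0359). H2-Aa, a chain of the presenting molecule itself, was at 870, 594 and 684 TPM against 500, 328 and 374 TPM (log2 difference -0.84, limma adjusted p = 0.0445). In both genes anti-PD1 lung 1 was the highest. Cd74, the invariant chain, was at 2271 ± 608 and 1276 ± 278 TPM (SD, n = 3) and did not pass (limma adjusted p = 0.0622). Class I genes differed less, with 1 of 19 lower (H2-Q4) and a median of -0.25 beside -0.17 for all genes. B2m, the shared light chain of class I, was at 2404 ± 121 and 2110 ± 143 TPM (SD, n = 3; adjusted p = 0.251 by limma).

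**Figure D4:**
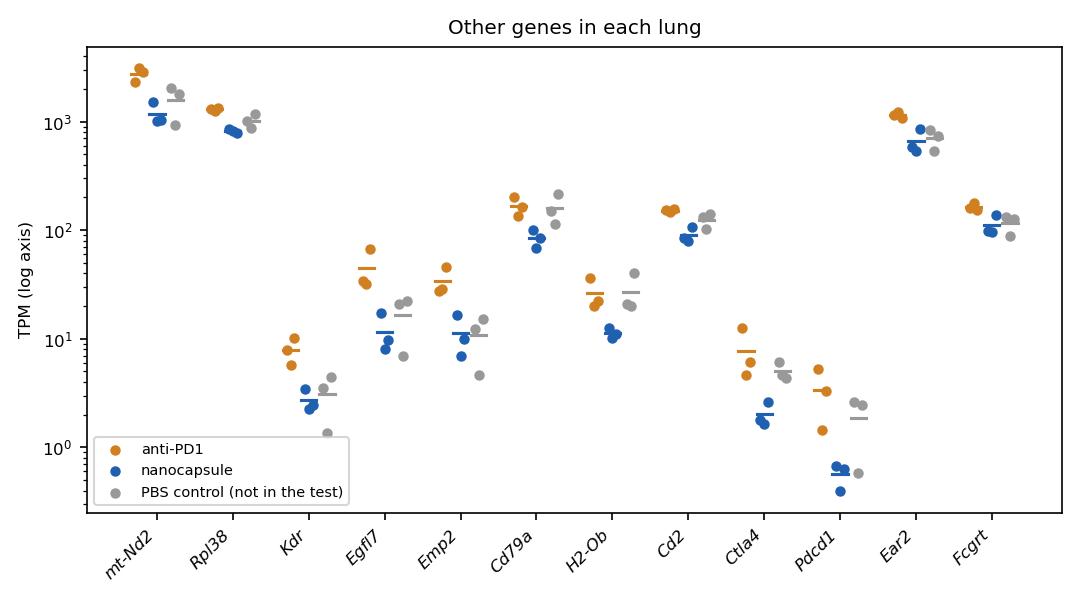
TPM of 12 genes in each lung on a log axis, with 1 point a lung and a bar at each group mean. The 3 nanocapsule lungs (blue) lie below the 3 anti-PD1 lungs (orange) in all 12, of which Pdcd1 and Fcgrt did not pass the test, and PBS lungs (grey) were not in the test.

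T cell genes were lower in value, with the anti-PD1 lungs far apart from each other. All 28 tested T cell receptor and co-receptor genes had a log2 difference below 0, against 70.6% of all genes, with a median of -0.88. Against 2.61% of all genes, 1 of the 28 fell. This was Cd2, an adhesion receptor of T cells and natural killer cells, at 152, 146 and 155 TPM against 85.2, 78.9 and 107 TPM (log2 difference -0.75, SE 0.12, limma adjusted p = 0.0286). The index of the list was 0.58, -0.36 and 1.07 in anti-PD1 lungs 1, 2 and 3 and -0.36 to -0.48 in the nanocapsule lungs, so that anti-PD1 lung 2 lay level with nanocapsule lung 1. Cd3e, a chain of the receptor complex, was at 72.4, 34.1 and 80.0 TPM against 33.2, 26.9 and 31.6 TPM and did not pass (limma adjusted p = 0.0856). Rag1 and Dntt, which rearrange antigen receptor genes in immature lymphocytes such as those of the thymus, were at 28.3 and 46.8 TPM in anti-PD1 lung 3 and at 4.72 and 12.1 TPM in nanocapsule lung 2. In the other 4 lungs Rag1 was at 0.907 to 3.46 TPM and Dntt at 0.767 to 4.49 TPM. All 17 tested thymocyte genes had a log2 difference below 0, and 0 were called. At an unadjusted p under 0.05, 3 were lower and 0 higher, against 22.5% and 6.76% of all genes. The summed level was 156 to 699 TPM in the anti-PD1 lungs and 166 to 212 TPM in the nanocapsule lungs. Ptcra, which defines immature thymocytes, was at 0 TPM in anti-PD1 lung 2 and at 1.01 TPM in anti-PD1 lung 3. Without anti-PD1 lung 2 the median of the T cell list was -1.32 and 25 of the 28 genes were called lower. Without anti-PD1 lung 3 the median was -0.54, and without that lung and nanocapsule lung 2 it was -0.54 as well. The part of thymocyte transcripts in the T cell differences was not tested beyond these values.

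The checkpoint receptors, to which the target of the antibody belongs, were mostly lower in value. Of 28 tested checkpoint and co-stimulation genes 3 fell and 1 rose, against 2.61% and 1.49% of all genes, and the median was -0.69. Pdcd1 itself (chromosome 1 from 94038305 to 94052553) was at 5.31, 1.45 and 3.33 TPM with the free antibody and at 0.680, 0.393 and 0.630 TPM in the nanocapsule lungs, and was not called. It reached 1 TPM only in the anti-PD1 lungs and so passed the filter through the group in which it was high, and these values are a description. Ctla4, the inhibitory receptor that competes with Cd28, lies on the same chromosome from 60887000 to 60915832. It was at 12.5, 4.67 and 6.11 TPM against 1.77, 1.65 and 2.63 TPM, 3.85 times lower by group mean (log2 difference -1.45, SE 0.31, limma adjusted p = 0.0433). Tigit (log2 difference -0.96) and Cd200, the ligand of an inhibitory receptor of myeloid cells (-1.18), fell as well. The gene that rose encodes VISTA, an inhibitory ligand of myeloid cells, and is listed under its older name 4632428N05Rik, at 272 ± 14.8 and 444 ± 43.9 TPM (SD, n = 3; log2 difference 0.70, limma adjusted p = 0.0244).

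The ligands of PD1 did not pass. Cd274 was at 43.9, 44.6 and 34.7 TPM against 18.03, 18.2 and 30.7 TPM (log2 difference -0.89, limma adjusted p = 0.0516), and Pdcd1lg2 at 2.14, 1.88 and 2.28 TPM against 0.684, 0.951 and 1.62 TPM (log2 difference -0.60, limma adjusted p = 0.119). In both, nanocapsule lung 3 lay nearest to the anti-PD1 lungs. Of 12 tested genes of regulatory T cells 1 fell, Ctla4, with a median of -0.75. Foxp3, their lineage factor, was at 3.83 ± 0.909 and 1.86 ± 0.346 TPM (SD, n = 3; adjusted p = 0.0655 by limma). Of 25 genes of cytotoxic lymphocytes and natural killer cells 2 fell, against 2.61% of all genes, with a median of -0.52. These were Eomes, a transcription factor of both cell types, from 5.75 ± 0.654 to 2.90 ± 0.415 TPM, and Ncr1, an activating receptor of natural killer cells, from 19.5 ± 2.66 to 12.1 ± 1.41 TPM (SD, n = 3; adjusted p = 0.0422 and 0.0488 by limma). Gzmb, the gene of granzyme B, was at 11.1, 16.5 and 13.7 TPM against 19.5, 10.4 and 8.40 TPM, with nanocapsule lung 1 the highest of all (limma adjusted p = 0.707).

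**Figure D5:**
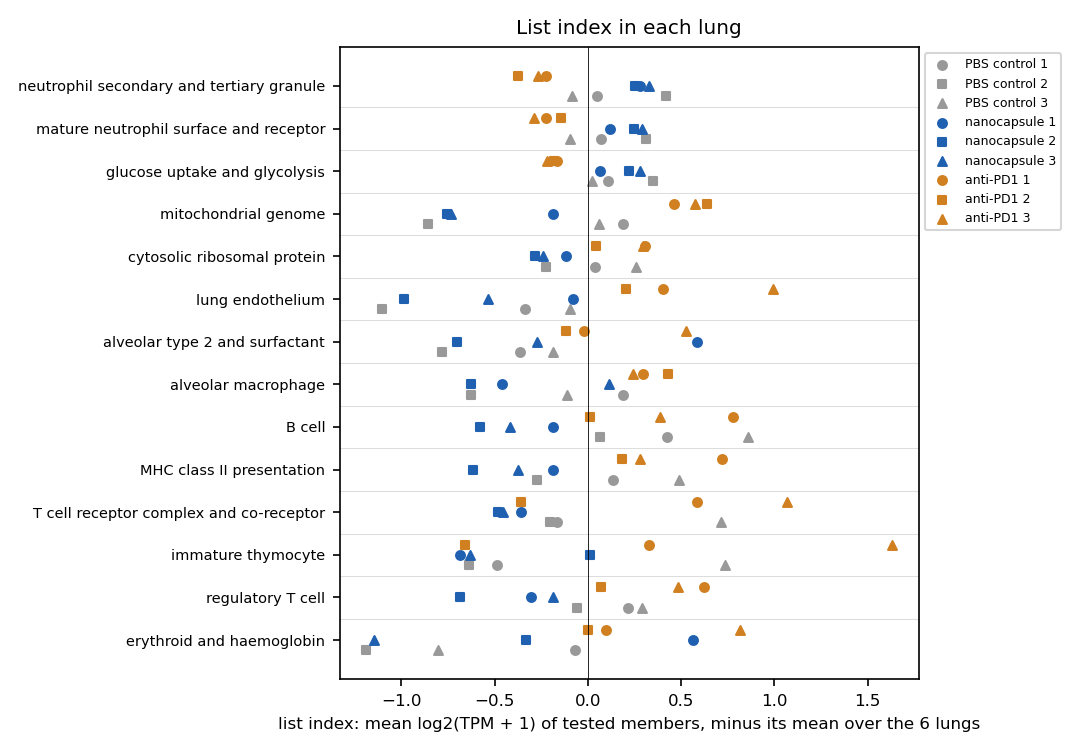
Index of 14 gene lists in each of the 9 lungs, the members' average log2(TPM + 1) minus its mean over the 6 compared lungs. Colour gives the group and shape the replicate number. Blue and orange points mix for the alveolar type 2, T cell receptor, thymocyte and erythroid lists and do not mix for the other lists plotted. Anti-PD1 lung 3 is farthest right for thymocyte genes (1.63), and PBS lung 2 is farthest left for endothelial genes (-1.10).

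Macrophage genes were lower for the alveolar kind. All 24 tested alveolar macrophage genes had a log2 difference below 0, against 70.6% of all genes, and the median was -0.70. Among them 4 fell, against 2.61% of all genes, and 0 rose, while 0 were called with the spread of all 9 libraries. Ear2, a secreted ribonuclease that alveolar macrophages express (chromosome 14 from 44102654 to 44103534), was at 1139, 1233 and 1074 TPM against 585, 534 and 861 TPM (log2 difference -0.83, SE 0.17, limma adjusted p = 0.0420). Its near-identical neighbour Ear1, placed in the eosinophil list, fell by the same -0.83, and reads can be exchanged between the pair. Fabp1, a fatty acid binding protein, was at 130 ± 21.7 and 69.1 ± 14.8 TPM, Cidec, a protein of lipid droplets, at 59.9 ± 4.90 and 33.3 ± 8.70 TPM, and Krt19, a keratin that is also epithelial, at 81.2 ± 5.28 and 48.9 ± 5.51 TPM (SD, n = 3). Nanocapsule lung 3 stood close to the anti-PD1 lungs, with an index of 0.11 against -0.46 and -0.63 in nanocapsule lungs 1 and 2, and without it 19 of the 24 genes were called. Monocyte and interstitial macrophage genes had a median of 0.03 over 25 tested, with 0 called, and 4 higher and 1 lower at an unadjusted p under 0.05. Of 19 dendritic cell genes 1 was called, Cd24a, which neutrophils also express, and it rose (347 ± 9.71 and 490 ± 27.9 TPM; SD, n = 3).

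Granule genes of eosinophils were low in both groups beside the PBS lungs. Prg2, the major basic protein, was at 3.49, 7.41 and 9.06 TPM against 12.6, 10.2 and 10.3 TPM (log2 difference 0.72, limma adjusted p = 0.134), while the PBS lungs were at 29.999, 47.1 and 27.6 TPM. Ear1 was the 1 call among 9 tested genes, and the median of the list was 0.15, with 0.03 to 0.35 when 1 lung was left out. Ccl24, the eosinophil attractant eotaxin 2, rose from 5.82, 6.99 and 5.43 TPM to 14.2, 12.3 and 9.24 TPM (log2 difference 0.85, SE 0.18, limma adjusted p = 0.0424). All 14 tested genes of mast cells and basophils were uncalled, with 0 higher and 2 lower at an unadjusted p under 0.05.

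Inflammatory signals showed few calls, in a study that asked about adverse inflammation. Of 24 cytokine and receptor genes limma called 0, with 4 higher and 2 lower at an unadjusted p under 0.05 and a median of -0.01. Il1b was at 2986, 4607 and 3507 TPM against 3203, 2858 and 4342 TPM, Il6 at 3.11 ± 0.428 and 2.51 ± 0.652 TPM, and Tnf at 15.2 ± 1.66 and 15.3 ± 3.76 TPM (SD, n = 3). All 3 overlapped between the groups (limma adjusted p = 0.778, 0.429 and 0.983), which does not show that they were equal. Of 30 genes of the type I interferon response 0 were called, with 1 higher and 2 lower at an unadjusted p under 0.05 and a median of -0.03. Of 26 genes of the interferon gamma response 1 fell, against 2.61% of all genes, with a median of -0.40 (-0.25 without anti-PD1 lung 1). The gene was Gbp8, a guanylate-binding protein, which went from 7.02 ± 1.48 to 3.26 ± 0.560 TPM (SD, n = 3; adjusted p = 0.0438 by limma). Ifng was at 3.36, 3.60 and 3.65 TPM against 2.21, 2.52 and 1.12 TPM (limma adjusted p = 0.103). Its target genes Cxcl9 and Cxcl10, chemokines that draw activated T cells, overlapped between the groups (log2 differences -0.38 and 0.23, limma adjusted p = 0.487 and 0.536).

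Among 45 tested chemokine ligands and receptors, 1 rose, Ccl24, and 1 fell, Ackr2, near the 1.49% and 2.61% of all genes. Ackr2, a decoy receptor that removes inflammatory chemokines, was at 2.19 ± 0.523 and 0.584 ± 0.260 TPM (SD, n = 3). Ackr2 reached 1 TPM in no nanocapsule lung and passed the filter only through the anti-PD1 lungs, so its call is no independent test. Of 20 genes of leukocyte adhesion to endothelium, 2 rose and 1 fell, against 1.49% and 2.61% of all genes. Selp, the gene of P-selectin, which endothelium and platelets display, was at 16.9, 23.1 and 17.9 TPM against 39.6, 41.4 and 27.4 TPM (log2 difference 0.86, SE 0.18, limma adjusted p = 0.0426). Pecam1, an adhesion molecule of the same cell types, was the gene that fell. Itgam, the alpha chain of the neutrophil and monocyte integrin Mac-1, rose from 254 ± 15.2 to 379 ± 28.2 TPM (SD, n = 3; adjusted p = 0.0286 by limma), and its partner gene Itgb2 did not pass (limma adjusted p = 0.358). Of 20 complement genes 2 rose and 1 fell, against 1.49% and 2.61% of all genes. Those that rose were Itgam and Cfp, the gene of properdin (log2 difference 0.50), and the one that fell was Cfb.

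An antibody is taken up through Fc receptors, of which 14 genes were tested, with 1 lower and 0 higher. The one that fell was Fcmr, the B cell receptor for IgM, at 71.3 ± 22.2 and 30.4 ± 7.25 TPM (SD, n = 3; adjusted p = 0.0364 by limma). Fcgrt, the receptor that recycles IgG, was at 159, 178 and 154 TPM against 98.3, 97.0 and 138 TPM without passing (log2 difference -0.57, limma adjusted p = 0.0586). Fcgr4, an activating receptor of myeloid cells, was at 144 ± 16.5 and 191 ± 4.30 TPM (SD, n = 3; adjusted p = 0.0554 by limma). Of 26 genes of phagocytosis, endocytosis and scavenging 1 rose, Flot1, a membrane scaffold protein (177 ± 17.4 and 256 ± 17.4 TPM; SD, n = 3), and of 30 lysosome genes 0 were called, with 1 higher and 4 lower at an unadjusted p under 0.05.

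Chaperone genes were lower in value. Of 21 heat shock genes 14 were lower and 0 higher at an unadjusted p under 0.05, against 22.5% and 6.76% of all genes, with a median of -0.41. By adjusted p 2 of the 21 fell, against 2.61% of all genes. These were the mitochondrial co-chaperone Hspe1 (109 ± 12.5 and 68.6 ± 2.40 TPM) and the adaptor Stip1 (48.2 ± 5.59 and 30.7 ± 2.35 TPM; SD, n = 3). Hspa1a and Hspa1b, near-identical inducible genes between which reads can be exchanged, did not pass (log2 differences -0.08 and -0.46, limma adjusted p = 0.672 and 0.123). Of 22 genes of the unfolded protein response 2 fell, against 2.61% of all genes, Manf and Hsp90b1, both of the endoplasmic reticulum. At an unadjusted p under 0.05, 11 were lower and 0 higher, against 22.5% and 6.76% of all genes, and the median was -0.21 beside -0.17 for all genes. Of 30 cell cycle genes 0 were called, with 0 higher and 4 lower at an unadjusted p under 0.05. Nr1d1, a repressor in the circadian clock, was the 1 call among 16 clock genes, at 14.5, 9.36 and 16.8 TPM against 7.32, 5.82 and 6.22 TPM (log2 difference -0.93, limma adjusted p = 0.0476). Immediate early genes had 0 calls among 22, with 1 higher and 4 lower at an unadjusted p under 0.05.

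Transcripts of blood and neighbouring tissues were compared as a check on what each lung sample held. Haemoglobin transcripts took 1.38%, 1.25% and 2.58% of TPM in the anti-PD1 lungs and 2.10%, 1.07% and 0.389% in the nanocapsule lungs, with overlap (two-sided exact permutation test, p = 0.4). Of 10 erythroid genes 0 were called, with 0 in either direction at an unadjusted p under 0.05, and their median of -0.70 came to -0.14 without nanocapsule lung 3. Of 15 platelet genes 1 rose, F2rl2, a protease-activated receptor, and 1 fell, Nrgn, neurogranin (log2 differences 0.73 and -1.20, limma adjusted p = 0.0366 and 0.0324), with a median of -0.70. Pf4, platelet factor 4, was at 45.6 ± 18.6 and 22.96 ± 2.97 TPM (SD, n = 3) and did not pass (limma adjusted p = 0.0779). Of 10 heart muscle genes 0 were called, with 0 higher and 1 lower at an unadjusted p under 0.05, and their summed level was 25.3 to 43.4 TPM against 11.4 to 42.9 TPM. Among 14 tested keratin and carcinoma genes the 2 calls were Lcn2, higher, and Krt19, lower, both expressed by other cells named above.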

How the data were processed

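RNA of 9 mouse lungs was sequenced after purification on poly-T beads, per the labels' protocols, and 6 lungs were compared here. The authors deposited TPM per gene, in which read numbers are divided by transcript length and scaled to 1000000 in each of the 9 columns. The submitters' processing notes name DESeq2 and GRCm38 without versions, and earlier filters are not given in the sources used here. Since this unit keeps no depth, counting error could not be given and no count test was run.

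Genes that reached 1 TPM in 3 or more of the 6 lungs entered the fit. It was made by limma 3.58.1 (R 4.3.3) on values of log2(TPM + 1), with a trend of variance on level and 4 residual degrees of freedom. The tests were two-sided, adjusted by Benjamini-Hochberg over all 12841 genes and called at an adjusted p under 0.05. A pseudocount of 1 understates the change of low genes. The fit was tested on simulated data. Positions came from GENCODE M21, which placed 99.7% of the tested genes, and promoters from RefSeq, both on GRCm38.

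The comparison, the 54 gene lists and the named genes were chosen with earlier results of these data known. Lists are described by counts and medians, without a test. Named were up to 15 called genes in each direction with a mean of at least 1 TPM and a symbol other than that of a predicted gene, clone, pseudogene or variable segment. The 2 members of smallest p and the 2 of highest TPM of each list were added, as were 30 genes of interest whatever their values. Other members named with a list, and Pgd, Tkt, Ifitm6 and the T cell receptor segments, were chosen after their values were seen. Alternatives covered pseudocounts, filters, scalings, variance models, a block on replicate number and the omission of each lung. No batch is labelled, and no column was identical to another.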

Additional observations from a re-analysis of the deposited data

How the results depend on the processing

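The count of calls depended strongly on the setting, and the cause was not tested except where a setting uses fewer samples or another set of genes. Leaving out 1 lung gave 0 to 1246 calls, 0 to 241 higher and 0 to 1005 lower. The extremes came without nanocapsule lung 2 (0) and without anti-PD1 lung 2 (1246), while 25 genes were called without anti-PD1 lung 1 and 11 without anti-PD1 lung 3. Leaving out the lung of highest Rag1 in each group, chosen after seeing the data, left 2 lungs a group and 3 calls, 1 higher and 2 lower. With no filter on low values 3 genes were called, 1 higher and 2 lower, and without a variance trend 7, 2 higher and 5 lower. Array weights gave 3393 calls, 583 higher and 2810 lower. Filters of 1 TPM in all 6 lungs and 5 TPM in 3 gave 861 and 857 calls, with 593 and 577 lower. Rescaling without mitochondrial, haemoglobin and immunoglobulin genes gave 1091 calls, 862 lower. The spread of all 9 libraries gave 88, with 50 higher and 38 lower. Median-of-ratios scaling gave 469 higher and 168 lower, quantile normalization 478 and 223, and rescaling without S100a8 and S100a9 gave 173 lower. The median of all genes moved to -0.03 with the first and 0.02 with the second of these scalings.

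Deviations of lungs of the same replicate number had correlations of -0.09, 0.05 and -0.19, and those of different numbers ran from -0.16 to 0.25. With so few lungs in each group these values cannot decide whether the numbers mark pairs, which was not tested further. A fit with the replicate block called 0 genes, 0 higher and 0 lower, with 799 higher and 3076 lower at an unadjusted p under 0.05.

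Over the settings, the named genes that were called gave no reversal of direction. Where the groups do not overlap, leaving out a lung could not give one. Of 54 lists, 38 kept the sign of their median in every setting run. The deposited TPM keep no depth, which limits statements on genes near 1 TPM.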

Other observations

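Values of 2 near-identical variable segments of the T cell receptor alpha chain stood in opposite directions. Trav7d-2 was at 5.21, 3.71 and 3.53 TPM with the free antibody and listed at 0 in all 3 nanocapsule lungs. Trav7-2 was listed at 0 in all 3 anti-PD1 lungs and was at 3.32, 2.71 and 1.83 TPM in the nanocapsule lungs. Each passed the filter only through the group in which it was high, so these are values without a test, and reads can be assigned to either copy, so neither level is certain.

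Histone genes of the replication-dependent clusters lack the tail that poly-T beads capture, yet Hist1h2ai was at 4.94, 5.92 and 3.22 TPM with the free antibody and at 0, 0.719 and 0 TPM in nanocapsule lungs 1, 2 and 3. It passed the filter only through the anti-PD1 lungs, so these are values without a test, and its copies share sequence, which makes its level uncertain.

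Ifitm6, an interferon-induced membrane protein gene of myeloid cells that stood in none of the lists, was at 2560, 1995 and 1985 TPM with the free antibody and rose in the nanocapsule lungs (log2 difference 0.95, SE 0.13, limma adjusted p = 0.0237). It was chosen after its values were seen. Cep19, a centrosomal protein gene, was at 31.1, 33.1 and 32.0 TPM against 52.5, 59.1 and 58.6 TPM, and Krt14, a keratin of mammary carcinoma cells, was below 1 TPM in all 9 lungs.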
